A study of Mus musculus with 51 samples.

Results

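The genes described are 10 immediate-early genes, followed across sorted bone marrow populations of Mll-AF9 and wild-type mice. They are Fos, Fosb, Jun, Junb and Jund, which encode subunits of the AP-1 transcription factor, Egr1, which encodes a zinc finger transcription factor, and Ier2, Dusp1, Atf3 and Nr4a1. The genes were taken by name, and all 12 of their probe sets were used out of 45037 probe sets tested. Jun and Jund had 2 probe sets each, and the brighter one over all samples stands for the gene unless the other is named. The array holds 18193 named genes in all.

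The study measured RNA on Affymetrix arrays from progenitors of granulocytes and macrophages (GMP), from the common progenitors of myeloid (CMP) and of lymphoid cells (CLP), and from hematopoietic stem cells (HSC). Mll-AF9 is a fusion of the Mll gene (Kmt2a) with AF9 (Mllt3), which is found in human acute myeloid leukaemia. Each population was sorted by flow cytometry from whole bone marrow and lysed at once in extraction buffer, and the RNA was amplified in a 2-cycle labelling reaction, per the labels' protocols. The groups were Mll-AF9 GMP (n = 4) and wild-type GMP (n = 5), Mll-AF9 CMP (n = 4) and wild-type CMP (n = 5), Mll-AF9 CLP (n = 7) and wild-type CLP (n = 8), and Mll-AF9 HSC (n = 5) and wild-type HSC (n = 5). The labels give no age, sex, strain or treatment of the mice, and do not say how the Mll-AF9 allele was made or where it is expressed. They do not say whether replicates are separate mice, so each p-value rests on a spread between samples that may be technical. The 51 arrays are 43 replicates, because 8 CMP replicates were run on 2 arrays each, and these were averaged.

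Libraries were checked before the genes were read. Of the CLP samples 8, all 7 Mll-AF9 CLP and wild-type CLP replicate 1, have the source name of CMP, and the title was followed. Marker genes went with the titles: Il7r, the interleukin-7 receptor of lymphoid progenitors, had a mean of 9.49 (SD 1.36) in the 7 Mll-AF9 CLP replicates and of 9.54 (SD 1.23) in the 8 wild-type ones, against 3.47 to 5.05 in the other 6 groups. Klf1, an erythroid transcription factor, averaged 7.79 ± 1.08 in Mll-AF9 CLP and 7.03 ± 1.26 in wild-type CLP (SD), but 11.31 ± 0.18 in Mll-AF9 CMP and 11.38 ± 0.22 in wild-type CMP. Mpo was highest in GMP, at 13.66 ± 0.10 in Mll-AF9 and 13.70 ± 0.13 in wild-type. Hlf, a stem cell gene, was high in both genotypes of HSC (10.53 ± 0.42 and 10.07 ± 0.27) and of CLP (9.36 ± 1.09 and 9.31 ± 0.63), so this stem cell transcript was in the CLP samples too. The 5 measured HSC markers together averaged 6.43 in Mll-AF9 CLP and 6.71 in wild-type CLP. They averaged 7.30 in Mll-AF9 HSC and 6.99 in wild-type HSC, and 4.04 to 4.79 in the GMP and CMP groups. The probe set of Kmt2a was fitted 0.45 to 0.56 lower (log2) in Mll-AF9 in each population, with adjusted p by limma of 0.181 to 0.874, and whether it lies in the part that the fusion keeps is not known here, so that it checks no label. Levels are log2 of the authors' RMA intensity, and 4.62 was taken as the background level, above which 53.4 to 60.3% of genes lay in each replicate. Levels are compared between samples for 1 probe set at a time, and never between genes.

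Immediate-early genes are transcribed within minutes of a stimulus without new protein synthesis, through serum response factor with its Elk partners and through CREB, and their mRNAs are short-lived. Fos and Jun family proteins pair to form AP-1, Egr1 binds GC-rich sites, and Dusp1 encodes a phosphatase that switches the upstream MAP kinases off. In blood formation Egr1 and Nr4a1 are known for holding stem cells in quiescence, while AP-1 and Egr1 take part in monocyte differentiation. They are also known to rise when tissue is dissociated and cells are sorted.

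Promoters are shown for 4 of the genes that were lower together in GMP (values follow), to show the response elements they carry. Each is the 250 bases before the start of the gene, from RefSeq on GRCm38.p6, written 5′ to 3′ on the strand of the gene, and promoters were matched for 8 of the 10 genes. Capitals mark matches on either strand to TGACG, the core of the CREB site (read as CGTCA on the other strand), to the full palindrome TGACGTCA, to TGACNTCA, the Jun-type site that includes that palindrome, to GCGNGGGCG, an Egr site, and to TATAAA. 
Fos, chr12:85473640-85473889, plus strand: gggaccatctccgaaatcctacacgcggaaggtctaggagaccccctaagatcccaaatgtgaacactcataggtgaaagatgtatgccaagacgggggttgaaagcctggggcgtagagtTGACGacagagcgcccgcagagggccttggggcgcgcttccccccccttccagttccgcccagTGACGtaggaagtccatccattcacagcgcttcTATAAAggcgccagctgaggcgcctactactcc
Jun, chr4:95052223-95052472, minus strand: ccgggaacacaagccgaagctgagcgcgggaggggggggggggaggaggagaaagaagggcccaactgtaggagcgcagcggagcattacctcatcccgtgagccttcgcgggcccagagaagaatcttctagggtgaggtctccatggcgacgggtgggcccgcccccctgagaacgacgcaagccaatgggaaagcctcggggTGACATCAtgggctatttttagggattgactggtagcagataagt
Dusp1, chr17:26508473-26508722, minus strand: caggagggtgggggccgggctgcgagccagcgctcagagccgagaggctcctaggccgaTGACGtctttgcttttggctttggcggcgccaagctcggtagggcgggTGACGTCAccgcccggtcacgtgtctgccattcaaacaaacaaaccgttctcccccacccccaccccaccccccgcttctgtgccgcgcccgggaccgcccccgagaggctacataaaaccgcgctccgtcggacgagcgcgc
Nr4a1, chr15:101266596-101266845, plus strand: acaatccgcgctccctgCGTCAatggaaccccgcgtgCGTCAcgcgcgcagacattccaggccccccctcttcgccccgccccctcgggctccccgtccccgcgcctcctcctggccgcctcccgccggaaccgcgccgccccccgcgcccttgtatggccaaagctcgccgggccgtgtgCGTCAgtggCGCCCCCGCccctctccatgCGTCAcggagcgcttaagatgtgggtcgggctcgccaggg

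TGACG was found in 6 of the 8 promoters, those of Fos, Fosb, Junb, Dusp1, Atf3 and Nr4a1, and in 17.8% of 32851 promoters of the same length. Nr4a1 held 4 matches to it. TGACGTCA was found in Dusp1 alone (1.55% of all), TGACNTCA in Jun and Dusp1 (7.49%), GCGNGGGCG in Fosb and Nr4a1 (4.7%) and TATAAA in Fos (12.4%). TGANTCA, the AP-1 site, was in 0 of 8 (6.75%), and the CArG box of serum response factor in 0 of 8 (1.47%). A match or its absence says only whether the letters stand in these 250 bases, and sequence farther off was not searched. No promoter was matched for Egr1 and Ier2.

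In both genotypes, 9 of the 10 genes were lower in GMP than in HSC. The exception was Atf3. These calls are from limma with Benjamini-Hochberg adjustment over all 45037 probe sets, in one model of the 8 groups, and a gene was called at an adjusted p under 0.05. In Mll-AF9 cells 9 of 10 were called lower, against a background of 11.8% of all probe sets called lower in that comparison, and 0 of 10 were called higher, against 16% of all probe sets. In wild-type cells 9 of 10 were called lower, where 13.3% of all probe sets were, and 0 of 10 higher, where 19.9% were. The median difference over the 10 genes was -1.95 (log2) in each genotype, while the median over all probe sets was 0.06 in Mll-AF9 and 0.09 in wild-type. All 9 called genes had groups that did not overlap in Mll-AF9 cells (9.73% of all probe sets were lower without overlap), as did 7 in wild-type cells (9.02%). Beside these values, the 4 monocyte and macrophage markers had a mean level of 8.31 in Mll-AF9 GMP against 6.26 in Mll-AF9 HSC, and of 8.21 in wild-type GMP against 6.52 in wild-type HSC, and their part in the differences was not tested. A lower level in a sorted pool can come from fewer cells that hold the RNA or from less RNA per cell, and these cannot be told apart here.

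**Figure D1:**
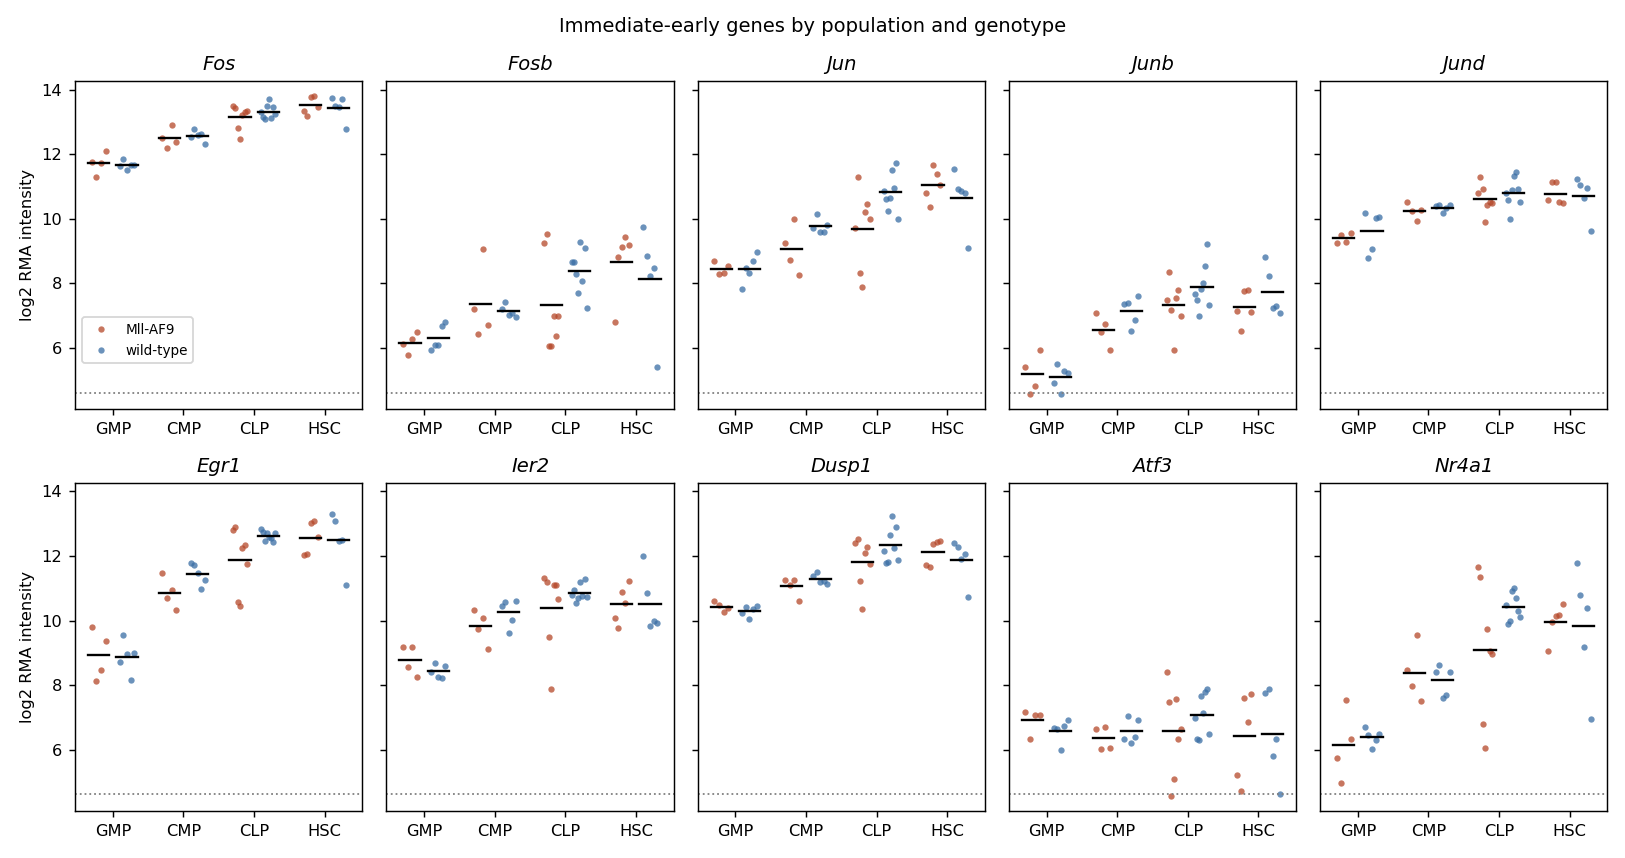
Log2 RMA intensity of the 10 genes in each replicate (points) of GMP, CMP, CLP and HSC, with Mll-AF9 on the left of each pair and wild-type on the right. Black bars are group means and the dotted line is the background level of 4.62. Fos, Jun and Egr1 lie lowest in GMP and highest in CLP and HSC, and Atf3 shows no such order.

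Fos, whose protein pairs with Jun, measured 11.76, 11.29, 11.73 and 12.11 in the Mll-AF9 GMP replicates, against 13.34, 13.19, 13.77, 13.81 and 13.47 in Mll-AF9 HSC. In wild-type GMP it measured 11.65, 11.86, 11.53, 11.68 and 11.67, against 13.74, 13.49, 13.47, 13.70 and 12.78 in wild-type HSC. Every GMP replicate lay below every HSC replicate in both genotypes, also below wild-type HSC replicate 5, the lowest of the stem cell samples. The difference was -1.79 ± 0.18 (SE) in Mll-AF9, adjusted p = 2.622e-10, and -1.76 ± 0.17 in wild-type, adjusted p = 7.149e-11, folds of 3.46 and 3.38 lower.

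Fosb, a close relative of Fos, fell by 2.51 in Mll-AF9 GMP (SE 0.64, adjusted p = 0.00253), and its groups did not overlap. In wild-type cells the difference was -1.82 ± 0.60 (adjusted p = 0.0172). There the 5 GMP replicates ran from 5.93 to 6.79 and 4 HSC replicates from 8.22 to 9.75, but HSC replicate 5 measured 5.40, below all GMP replicates.

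Egr1 showed the largest fall among the 10 genes in wild-type GMP. It measured 9.78, 8.11, 8.46 and 9.38 in Mll-AF9 GMP, against 12.04, 12.07, 13.02, 13.08 and 12.58 in Mll-AF9 HSC, and 8.73, 9.54, 8.96, 8.15 and 8.99 in wild-type GMP, against 13.31, 13.09, 12.45, 12.51 and 11.11 in wild-type HSC. The groups lay apart in both genotypes, with the highest GMP replicate more than 1 log2 unit under the lowest HSC replicate. The difference was -3.62 ± 0.39 in Mll-AF9 (adjusted p = 1.861e-09) and -3.62 ± 0.37 in wild-type (adjusted p = 3.794e-10), which is 12.3-fold lower in each.

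Nr4a1, an orphan nuclear receptor, fell by 3.83 in Mll-AF9 GMP (SE 0.74, adjusted p = 9.474e-05) and by 3.44 in wild-type GMP (SE 0.70, adjusted p = 0.000147). Its replicates were 5.74, 4.96, 7.53 and 6.34 in Mll-AF9 GMP, against 9.06, 9.95, 10.16, 10.17 and 10.51 in Mll-AF9 HSC. Those groups did not overlap, and the same held in wild-type, where GMP ran from 6.01 to 6.69 and HSC from 6.96 to 11.79. The lowest wild-type HSC value, 6.96, was again replicate 5.

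The Jun family fell with Fos. Jun fell by 2.59 in Mll-AF9 GMP (SE 0.45, adjusted p = 1.848e-05) and by 2.20 in wild-type GMP (SE 0.42, adjusted p = 7.484e-05). It measured 8.30 to 8.68 in Mll-AF9 GMP and 10.37 to 11.66 in Mll-AF9 HSC, and 7.82 to 8.96 in wild-type GMP against 9.11 to 11.55 in wild-type HSC, with no overlap in either genotype. Its other probe set fell too, by 1.19 in Mll-AF9 GMP (SE 0.39) and by 1.54 in wild-type GMP (SE 0.37), with overlap in wild-type. Junb, a Jun relative that can oppose it, fell by 2.10 in Mll-AF9 GMP (SE 0.40) and by 2.63 in wild-type GMP (SE 0.37). Its GMP values came close to background: 1 replicate of each genotype, at 4.58 in Mll-AF9 and 4.56 in wild-type, lay below 4.62. Jund, the most steadily expressed Jun family member in many tissues, fell least of the 9 genes, by 1.37 in Mll-AF9 GMP (SE 0.28) and by 1.09 in wild-type GMP (SE 0.26), and its wild-type groups overlapped. Its second probe set averaged 3.96 over all replicates and passed the background level in 1 of 43, so that no level is read from it.

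Ier2, an early response gene of the nucleus, fell by 1.71 in Mll-AF9 GMP (SE 0.44, adjusted p = 0.00281) and by 2.09 in wild-type GMP (SE 0.42, adjusted p = 0.000117). Dusp1 fell by 1.70 in Mll-AF9 GMP (SE 0.31, adjusted p = 4.473e-05) and by 1.57 in wild-type GMP (SE 0.29, adjusted p = 4.757e-05). Neither gene's groups overlapped in either genotype. Atf3, a stress-responsive partner of Jun, differed by 0.48 (95% confidence interval -0.71 to 1.68) in Mll-AF9 and 0.11 (-1.02 to 1.24) in wild-type, with adjusted p of 0.591 and 0.9. Its HSC replicates ran from 4.72 to 7.74 in Mll-AF9 and from 4.62 to 7.86 in wild-type, around GMP values of 6.32 to 7.15 and 5.98 to 6.92.

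**Figure D2:**
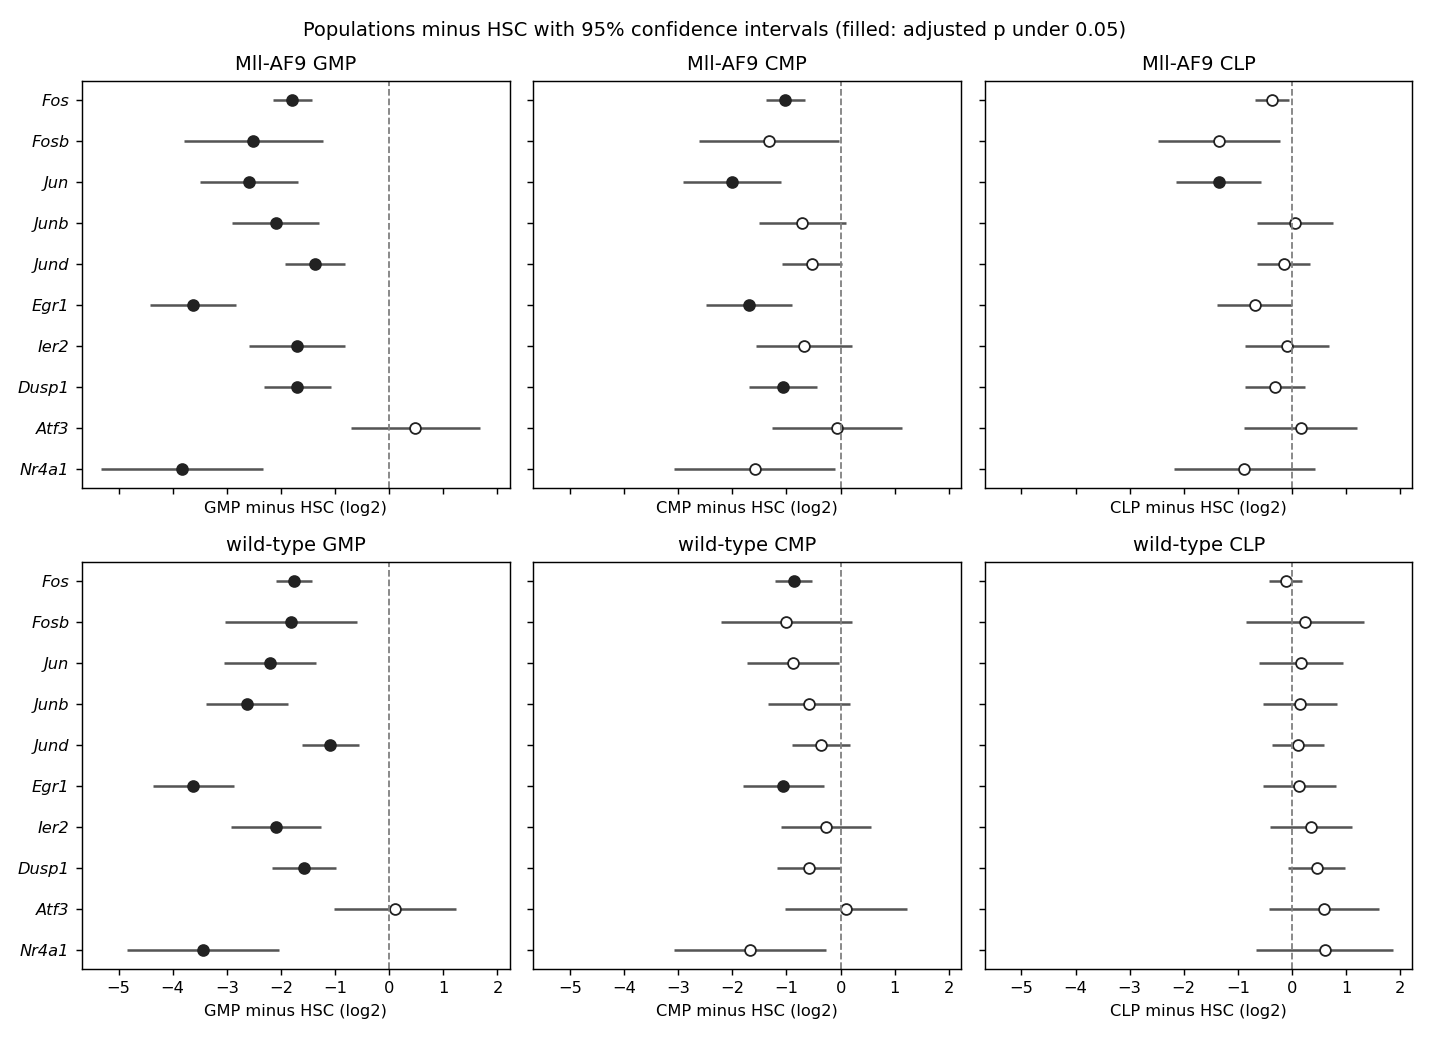
Difference of each population from HSC in log2 units (horizontal axis) for the 10 genes, with 95% confidence intervals, in Mll-AF9 (upper panels) and wild-type cells (lower panels). Filled points have an adjusted p under 0.05. In GMP 9 points are filled in each genotype, in CMP 4 in Mll-AF9 and 2 in wild-type, and in CLP 1 in Mll-AF9 and 0 in wild-type.

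CMP took a middle position. In Mll-AF9 cells 4 of 10 genes were lower in CMP than in HSC (background 6.69% lower). Jun fell by 2.00 (SE 0.45, adjusted p = 0.00118), Egr1 fell by 1.70 (SE 0.39, adjusted p = 0.00167), Dusp1 fell by 1.07 (SE 0.31, adjusted p = 0.0136) and Fos fell by 1.02 (SE 0.18, adjusted p = 4.811e-05), each without overlap (6.72% of all probe sets were lower without overlap). In wild-type cells 2 of 10 were lower and 0 higher (background 7.78% lower, 8.99% higher). Fos fell by 0.87 (SE 0.17, adjusted p = 0.000168) and Egr1 fell by 1.06 (SE 0.37, adjusted p = 0.042), and both overlapped. The Jun probe sets differed there, at -0.89 (adjusted p = 0.169) on the brighter and -1.16 (adjusted p = 0.0228) on the other. The wild-type count turned on wild-type HSC replicate 5: without it 6 genes were called, with Nr4a1 at -2.39, Fosb at -1.69 and Jun at -1.27, while leaving out any of 7 other replicates left 1. CMP values have more decimals than the others in the deposited table and may have been normalized apart. The part of this in the CMP comparisons was not tested beyond renormalizing all replicates. For wild-type CMP against HSC, quantile normalization gave 2 called too, but median centring gave 1. With the second CMP run alone 1 was called as well.

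Within wild-type cells GMP was also lower than CMP for 7 of 10 genes (background 11% lower), with Egr1 at -2.56 ± 0.37, Junb at -2.05 ± 0.37 and Ier2 at -1.82 ± 0.42. Jun was at -1.31 ± 0.42 on its brighter probe set, but at -0.39 (adjusted p = 0.478) on the other. Fosb and Nr4a1 were not called there, although every GMP replicate lay below every CMP replicate for both. CLP was higher than CMP for 5 of 10 genes (background 8.15% higher), with Nr4a1 at 2.28 ± 0.63, Egr1 at 1.19 ± 0.33, Jun at 1.05 ± 0.38, Dusp1 at 1.04 ± 0.26 and Fos at 0.75 ± 0.15. CLP was higher than GMP for 9 of 10 genes (background 14.5% higher), again all but Atf3, with Nr4a1 at 4.04 ± 0.63 and Egr1 at 3.76 ± 0.33. These comparisons and those with HSC share samples, so that they are not separate evidence of one order.

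Few genes were called between CLP and HSC. In wild-type cells 0 of 10 genes were called between CLP and HSC by limma, 0 had an unadjusted p under 0.05, and 0.24% of all probe sets were called in either direction. The 95% confidence intervals were -0.42 to 0.19 for Fos, -0.54 to 0.81 for Egr1 and -0.60 to 0.94 for Jun, and wider for Nr4a1, at -0.66 to 1.87. The 5 HSC markers averaged 6.71 in wild-type CLP against 6.99 in wild-type HSC, and their part in this comparison was not tested. In Mll-AF9 cells 1 of 10 was lower in CLP than in HSC (background 1.09% lower), Jun at -1.36 ± 0.39 with an adjusted p of 0.0472. Jun measured 7.88 to 11.31 with a median of 9.99 in Mll-AF9 CLP and 10.37 to 11.66 in Mll-AF9 HSC, so that the groups overlapped. The other Jun probe set gave -0.53 with an adjusted p of 0.431, and leaving out 1 of 8 replicates in turn, among them CLP replicates 3 and 4, ended the call.

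By group mean, 7 of the 10 genes (Fos, Jun, Jund, Egr1, Ier2, Dusp1 and Nr4a1) followed the order GMP, CMP, CLP, HSC in Mll-AF9 cells, while Fosb, Junb and Atf3 did not. The other Jun probe set was lowest in Mll-AF9 CMP, at 8.55, against 8.76 in Mll-AF9 GMP. In wild-type cells Fos alone kept that order, and the other 9 genes had a higher mean in CLP than in HSC. Jun and Egr1 were higher there by 0.17 and 0.14. Nr4a1 averaged 10.43 in wild-type CLP against 9.82 in wild-type HSC, and Dusp1 12.33 against 11.87. All of these groups overlapped, and 0 of 10 genes were called. The wild-type HSC means include replicate 5, which was the lowest of its group for 9 of 10 genes. The order without it is not given here, so no difference in order between the genotypes is read. Among neighbours in the order, wild-type GMP lay below wild-type CMP without overlap for 8 genes, as did 13% of all probe sets. Wild-type CLP and CMP were neighbours for Fos alone, and did not overlap there. Neighbours or not, wild-type CLP lay above wild-type CMP without overlap for 4 of 10 genes, Fos, Egr1, Dusp1 and Nr4a1. The share of all probe sets that did so is not given here. No CLP and HSC neighbours were free of overlap.

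Between genotypes, 0 of 10 genes were called in any population by limma within each population. Over all probe sets, 0.215% were called in either direction in CLP, 0.184% in CMP, 0.167% in GMP and 0.00666% in HSC. The smallest adjusted p of a member ran from 0.465 (CLP) over 0.639 (CMP) and 0.698 (GMP) to 0.885 (HSC), and every member's replicates overlapped between genotypes in every population. At an unadjusted p under 0.05 there were 4 genes in CLP, 3 in CMP and 0 in GMP and in HSC. The share of all probe sets at that unadjusted threshold is not given here, so nothing particular to these genes is read from the counts.

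**Figure D3:**
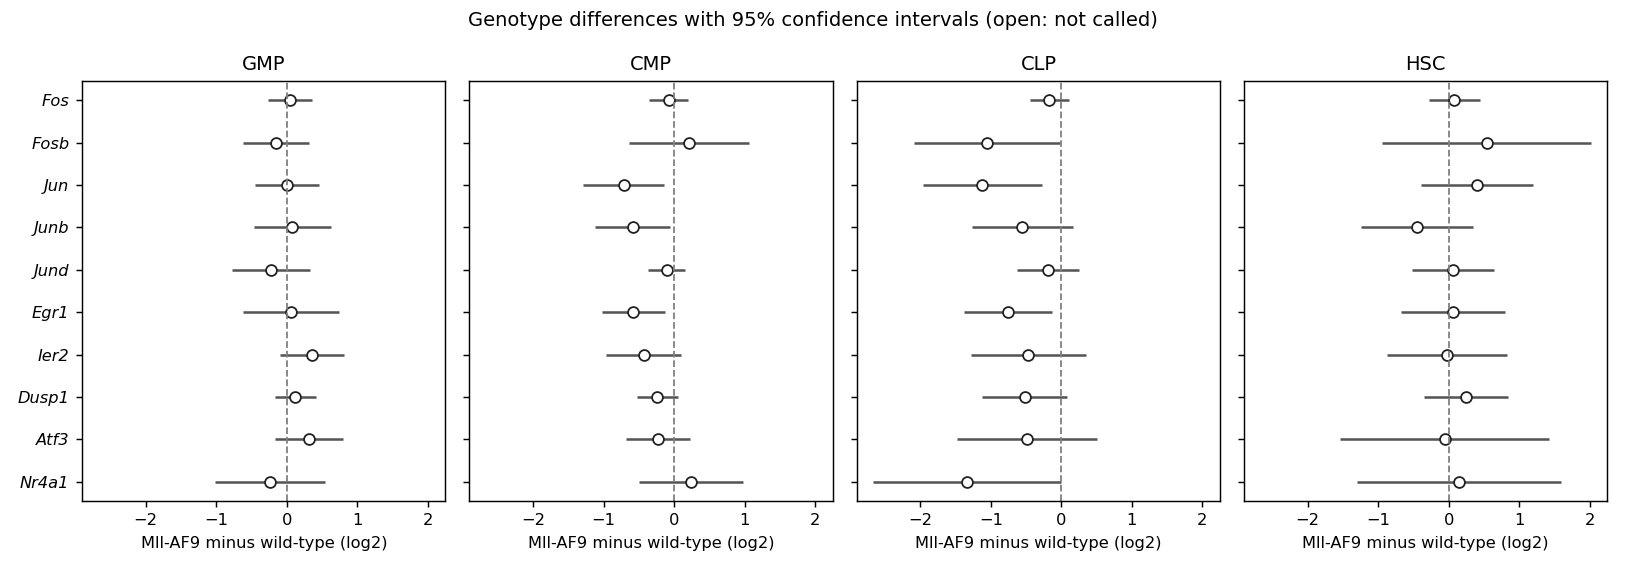
Mll-AF9 minus wild-type difference (log2, horizontal axis) of the 10 genes in each population, with 95% confidence intervals. All points are open because no adjusted p was under 0.05, and all 10 points lie below 0 in CLP.

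In GMP the intervals were narrow for Fos (-0.26 to 0.35) and Dusp1 (-0.17 to 0.42), with differences of 0.05 and 0.12. In HSC they were -0.29 to 0.44 for Fos and -0.68 to 0.81 for Egr1, but -0.94 to 2.02 for Fosb, so that a change of Fosb by a log2 unit was not detectable there. In CMP the 3 genes with an unadjusted p under 0.05 were Jun at -0.71 (SE 0.27, adjusted p = 0.676), Egr1 at -0.58 (SE 0.21, adjusted p = 0.639) and Junb at -0.58 (SE 0.25, adjusted p = 0.771). Jun measured 9.24, 8.73, 9.99 and 8.25 in Mll-AF9 CMP, against 9.72, 10.14, 9.58, 9.58 and 9.81 in wild-type CMP, where 1 Mll-AF9 replicate lay among the wild-type values.

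The mean level of Y-linked genes went with genotype in every population: it was below background in all Mll-AF9 replicates, at 2.21 to 2.72, and above it in 3 of 5 wild-type GMP, 3 of 5 wild-type CMP, 6 of 8 wild-type CLP and 2 of 5 wild-type HSC replicates. Fitted with it as a covariate, 0 of 10 genes were called by limma in any population. In CMP, Egr1 stood at -0.26 in that fit, Jun at -0.64 and Junb at -0.67, with adjusted p of 0.814 to 0.906. In GMP 5 of 10 genes were fitted below 0 with the covariate, against 3 without it, and in HSC 0 of 10, against 3.

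In CLP all 10 genes were fitted lower in Mll-AF9, with a median of -0.54 against 0.02 over all probe sets, and none was called. The 4 genes with an unadjusted p under 0.05 were Nr4a1 at -1.34 (SE 0.64), Jun at -1.12 (SE 0.40), Fosb at -1.06 (SE 0.50) and Egr1 at -0.76 (SE 0.30), with adjusted p of 0.465 to 0.6. The other Jun probe set gave -1.03 (SE 0.32, adjusted p = 0.362). Nr4a1 measured 11.66, 11.34, 6.78, 6.07, 9.73, 9.06 and 8.97 in Mll-AF9 CLP, against 9.90 to 11.02 with a median of 10.39 in wild-type CLP. Of the Mll-AF9 replicates, 2 lay above all wild-type ones and the other 5 below them. Egr1 measured 12.81, 12.90, 10.58, 10.46, 12.26, 12.34 and 11.75 in Mll-AF9 CLP, against 12.44 to 12.83 with a median of 12.65 in wild-type CLP, where 1 Mll-AF9 replicate lay above all wild-type ones and 5 below them.

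Several other measures differed between the CLP genotypes. The 3′ minus 5′ difference of the control probe sets, a measure of RNA integrity, had a mean of 4.18 (SD 0.53) in the 7 Mll-AF9 CLP replicates, against 3.69 (SD 0.21) in the 8 wild-type ones. The 6 CLP markers had a mean of 7.73 in Mll-AF9 CLP (7.15 to 8.77) against 8.76 in wild-type CLP, where replicate 8 had 7.13 and the other 7 had 8.67 to 9.42. The 5 mature neutrophil markers had a mean of 8.99 in Mll-AF9 CLP (7.09 to 12.21) against 6.72 in wild-type CLP (4.03 to 11.48). The mean of Y-linked genes was below background in all 7 Mll-AF9 CLP replicates, but above it in 6 of 8 wild-type CLP replicates. Fitted with that 3′ minus 5′ measure as covariate, the differences ran from -0.93 to 0.17 with 7 of 10 below 0, and Jun stood at -0.27. With the Y-linked level as a covariate, 10 of 10 were below 0 and Fosb stood at -0.18. The part of the marker lists in the CLP differences was not tested.

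The genotype difference was compared between populations by interaction terms against HSC. For limma's interaction, 0 of 10 genes were called for GMP (background 0.0111% in either direction), for CMP (0%) and for CLP (0.127%), with smallest adjusted p of 0.891, 1 and 0.359. At an unadjusted p under 0.05 there were 0, 0 and 3 genes, and the share of all probe sets at that threshold is not given here. The largest of these 3 differences was that of Jun, whose genotype difference was 1.52 lower in CLP than in HSC (-1.52 ± 0.55). Leaving out the 3 low replicates described next, it was -0.50, against -1.52 with them.

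Replicates of one group differed together. Mll-AF9 CLP replicate 4 was the lowest of its 7 for 8 of the 10 genes, with a mean deviation from the group of -1.58, and replicate 3 stood at -0.99, while replicates 1 and 2 stood at 0.95 and 1.15. In wild-type HSC, replicate 5 was the lowest for 9 of 10 genes (-1.45) and replicate 1 the highest for 9 (1.05). Nr4a1 therefore had an SD of 2.10 in Mll-AF9 CLP and 1.85 in wild-type HSC, but 0.42 in wild-type CLP. An SD over 1 was found for 5 of 10 genes in Mll-AF9 CLP, where 3.12% of all genes above background had one, and for 3 of 10 in wild-type HSC, where 2.42% did. In CMP, Mll-AF9 replicate 3 had Fosb at 9.05, against 6.44 to 7.19 in the other 3.

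**Figure D4:**
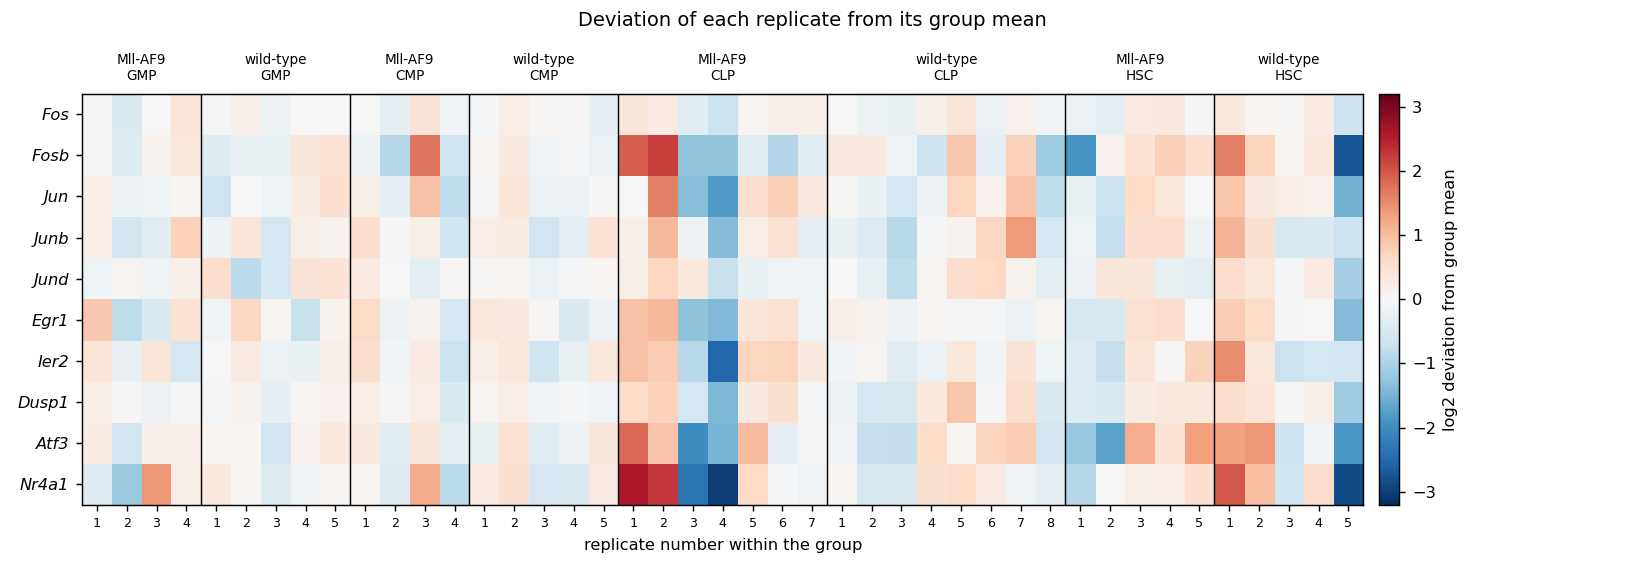
Deviation of each of the 43 replicates (columns, numbered within groups) from its group mean, in log2 units, for the 10 genes (rows). Red is above and blue below the mean. Mll-AF9 CLP replicates 3 and 4 and wild-type HSC replicate 5 are blue in most rows, and Mll-AF9 CLP replicates 1 and 2 and wild-type HSC replicate 1 are red.

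Without Mll-AF9 CLP replicates 3 and 4 and wild-type HSC replicate 5, which were picked after their values had been seen, the genotype differences in CLP ran from -0.55 to 0.21, with 7 of 10 below 0, and Jun stood at -0.49. The 3′ minus 5′ difference was 4.32 and 4.93 in Mll-AF9 CLP replicates 3 and 4, and 4.87 in the high replicate 1. In wild-type HSC replicate 5 it was 3.09, the lowest of its group. The share of genes above background was 60.3% in Mll-AF9 CLP replicate 3, the highest of all replicates. It was 55.7% in Mll-AF9 CLP replicate 4 and 56.0% in wild-type HSC replicate 5. Mll-AF9 CLP replicates 3 and 4 had the lowest means of the 5 HSC markers in their group, 5.66 and 5.60, the lowest CLP marker means, 7.34 and 7.15, and the highest CMP marker means, 7.96 and 8.49. Wild-type HSC replicate 5 had the highest GMP marker mean of its group, 10.45 against 8.56 to 9.30. The part of these measures and markers in the low levels was not tested.

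Over all 43 replicates, deviations from the group means followed those of Fos. Pearson's r was 0.81 for Dusp1 (Spearman's rho 0.76), 0.78 for Jun (0.74), 0.76 for Nr4a1 (0.65), 0.75 for Egr1 (0.66), 0.71 for Fosb (0.64) and 0.69 for Atf3 (0.63). For these 6 genes the permutation p was 1e-05 for r, the smallest that 100000 permutations give, and the adjusted p over 9 relations was 1.5e-05. Junb (r 0.61, rho 0.57) and Ier2 (0.60, 0.51) followed, and Jund was weakest (0.38, 0.23), with an adjusted permutation p of 0.0123 for r and 0.142 for rho. Without the 2 replicates farthest from the median of Fos, Mll-AF9 CLP replicate 4 and wild-type HSC replicate 5, r was 0.70 for Dusp1 and 0.67 for Jun, and for Jund it was 0.13, so that Jund's relation rested on those samples.

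With all replicates kept, the relation was called for most of the 9 genes within CLP and HSC, but for 1 gene each in GMP and CMP, which had fewer replicates. In CLP (n = 15) 9 of 9 relations had an adjusted permutation p under 0.05 for r, from 0.54 for Jund to 0.94 for Dusp1. In HSC (n = 10) 8 of 9 did, with 0.95 for Jun and 0.92 for both Dusp1 and Egr1, and Ier2 did not (0.52). The low replicates named above, of Mll-AF9 CLP and wild-type HSC, were kept, and their part in the relations within CLP and HSC was not tested. How many of all genes follow Fos within a population is not given here. In GMP (n = 9), exact permutation tests called Junb alone (r 0.89, adjusted exact p = 0.00268), and in CMP (n = 9) Fosb alone (r 0.88, adjusted exact p = 0.0125). The r values not called ran from -0.08 (Jund) to 0.68 (Atf3) in GMP and from -0.48 (Jund) to 0.74 (Jun) in CMP. The missing calls there are not read as a lack of relation. The 3′ minus 5′ difference followed none of the 3 genes set against it: r was 0.03 for Fos, 0.13 for Egr1 and 0.09 for Nr4a1, with adjusted permutation p of 0.842, 0.831 and 0.831.

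The 8 CMP replicates with 2 array runs show how far runs of one replicate differed, and for some probe sets the shift had the same direction in all 8. Junb was lower in the second run in 8 of 8 replicates, by 0.62 on average (-1.03 to -0.24), Nr4a1 in 8 of 8 by 0.38, and Jund in 8 of 8 by 0.23. Egr1 was higher in the second run in 8 of 8, by 0.21. The 2 Jun probe sets went opposite ways between runs, with -0.25 on the brighter one and 0.39 on the other, which was higher in 8 of 8. Fosb moved by -0.64 to 1.15 between runs of one replicate. Fos moved by -0.07 to 0.26 and Dusp1 by -0.19 to 0.22, with means of 0.10 and 0.04.

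**Figure D5:**
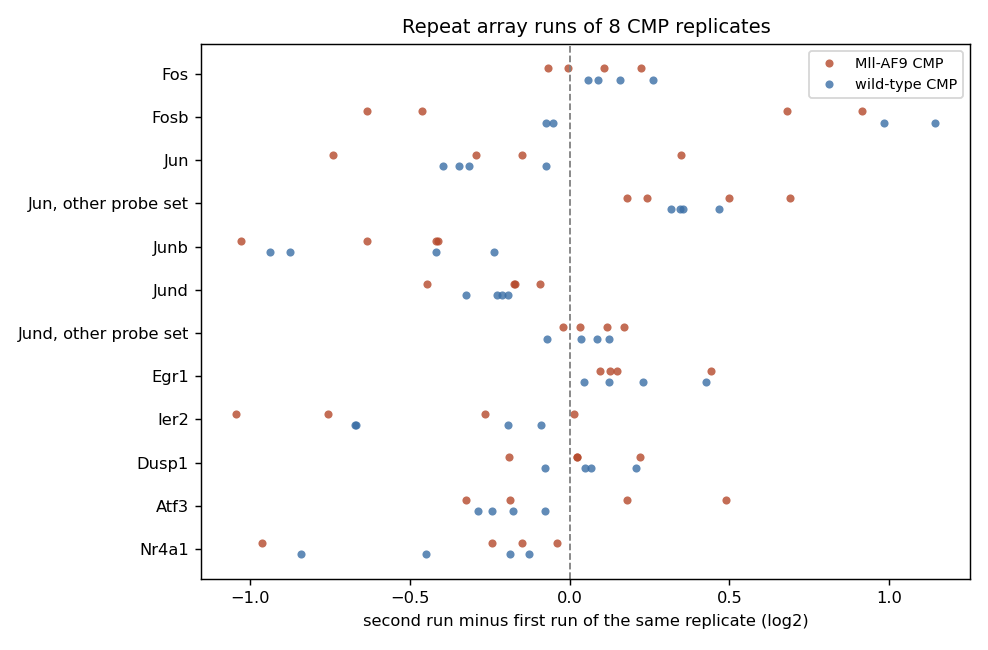
Second minus first array run (log2, horizontal axis) of each of 8 CMP replicates (points), for the 12 probe sets, with Mll-AF9 CMP drawn above wild-type CMP. Junb, Jund and Nr4a1 lie left of 0 in all 8 replicates, and Egr1 and the other Jun probe set lie right of 0.

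Other genes of the response were read from lists drawn up with results of these data known. Of 26 other immediate-early genes, 14 were lower and 0 higher in Mll-AF9 GMP than in Mll-AF9 HSC (median difference -1.23, background 11.8% lower and 16% higher). In wild-type GMP 15 were lower and 0 higher than in wild-type HSC (median -1.66, background 13.3% lower and 19.9% higher). Egr3, a relative of Egr1, fell by 4.06 in wild-type GMP (SE 0.78, adjusted p = 7.058e-05), Nr4a2, a relative of Nr4a1, by 3.78 (SE 0.85, adjusted p = 0.00052), and Zfp36l1, which destabilises short-lived mRNAs, by 2.74 (SE 0.40, adjusted p = 6.919e-07). In Mll-AF9 GMP Egr3 fell by 2.70, Nr4a2 by 2.74 and Zfp36l1 by 3.36. Of 14 phosphatases and inhibitors that damp the kinase pathway, 7 were lower and 0 higher in Mll-AF9 GMP, and 7 were lower and 1 higher in wild-type GMP. The background shares are the same. Dusp2, Dusp5 and Dusp16, which act on MAP kinases, fell by 2.35, 2.64 and 2.87 in Mll-AF9 GMP, and by 3.10, 3.00 and 2.42 in wild-type GMP.

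For the next 3 lists, the shares of all probe sets called were 16% higher and 11.8% lower in Mll-AF9 GMP, and 19.9% higher and 13.3% lower in wild-type GMP. With 9 to 16 measured genes a list, nothing particular to the lists is read from their counts. Of 16 measured kinase, serum response factor and CREB pathway genes, 2 were higher and 2 lower in Mll-AF9 GMP than in HSC, and 2 higher and 3 lower in wild-type GMP. Elk4, a partner of serum response factor, fell by 1.83 (SE 0.18) in Mll-AF9 GMP and by 2.12 (SE 0.17) in wild-type GMP. Of 12 other AP-1 and related factors, 4 were higher and 2 lower in Mll-AF9 GMP, and 3 higher and 3 lower in wild-type GMP. Jdp2, a repressor of AP-1, was 1.70 higher in Mll-AF9 GMP (SE 0.27) and 1.64 higher in wild-type GMP (SE 0.26), but relative to HSC it fell by 1.72 in Mll-AF9 CMP (SE 0.27) and fell by 2.13 in wild-type CMP (SE 0.26). Of 9 heat-shock genes, 0 were higher and 1 lower in Mll-AF9 GMP, and 2 were higher and 1 lower in wild-type GMP. Dnajb1, a chaperone partner of Hsp70, was the lower one in both, at -1.34 ± 0.16 (SE) in Mll-AF9 GMP and -1.27 ± 0.15 in wild-type GMP. In the genotype comparisons 0 genes of these lists were called in any population.

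In CMP, 9 of the 26 other immediate-early genes were lower than in HSC in Mll-AF9 cells (background 6.69% lower). In wild-type cells 9 were lower and 1 higher (background 7.78% lower and 8.99% higher). Klf2, Klf4 and Klf6, zinc finger factors, were among them: Klf2 fell by 2.41 in Mll-AF9 CMP and by 3.05 in wild-type CMP, Klf4 stood at -2.20 in Mll-AF9 and -2.69 in wild-type, and Klf6 at -2.29 and -2.20. Between CLP and HSC, limma called 0 of the 26 in either genotype (background 0.24% in either direction in wild-type, and 1.09% lower in Mll-AF9).

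The genes whose levels over the 43 replicates were most like those of 3 members were taken as the 5 with the highest Pearson's r among 10256 genes above background. For Fos they were Tsc22d1 (0.95), Rgs1 (0.95), Msi2 (0.95), Ctla2a (0.93) and Cxxc5 (0.93). For Egr1 they were Rgs1 (0.95), Ctla2a, Msi2, Tsc22d1 and Ppp1r9a (0.91). For Jun they were Zfp36 (0.93), Rgs1 (0.90), Btg2, Socs3 and Klf6 (0.87), of which Zfp36, Btg2 and Klf6 are themselves early response genes. The replicates share populations, and once each group mean was taken away r was 0.89 for Zfp36 with Jun, 0.72 for Rgs1 with Fos and 0.47 for Cxxc5 with Fos.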

How the data were processed

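RNA of sorted bone marrow populations was measured on Affymetrix arrays. The authors' deposited table holds RMA intensity values on a linear scale, per the file's values and the submitters' processing notes. CMP columns carry 9 decimals and the others 2. Array number limits the precision, since the values carry no depth. Here log2 was taken, 64 control probe sets were left out, and 2 runs of 8 CMP replicates were averaged. Of the probe sets, 34945 had 1 gene symbol. The background level was the 95th percentile of 114 genes of sensory receptors (smell, pheromones, taste) and of keratin-associated proteins.

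Genotypes were compared within each population, and populations and interactions in one model of 8 groups, with limma 3.58.1 in R 4.3.3 (lmFit and eBayes with an intensity trend, Benjamini-Hochberg adjustment over 45037 probe sets). The fits were checked on simulated data. Correlations used 100000 permutations, or all orderings under 10 replicates. Alternatives were quantile normalization, median centring, filters, variance models, covariates, runs and replicates left out. Members and lists were chosen with earlier results of these data known. Genes named beyond the members are marker genes, the fusion partners, up to 4 of the most changed genes called per list and comparison, and the 5 most alike by correlation.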

Additional observations from a re-analysis of the deposited data

Results flagged for a closer look

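Of 96 sets of replicates tested for a value far from the rest, 7 held one, where chance gives about 1 in 20. In wild-type HSC replicate 5, Fos measured 12.78 against 13.47 to 13.74 in the other 4, and Dusp1 measured 10.74 against 11.92 to 12.39. Both belong to the replicate that was lowest for 9 of the 10 genes. Fosb measured 6.80 in Mll-AF9 HSC replicate 1, against 8.82 to 9.44 in the other 4. Atf3 was low in 1 GMP replicate of each genotype, at 6.32 in Mll-AF9 GMP replicate 2 against 7.07 to 7.15, and at 5.98 in wild-type GMP replicate 3 against 6.65 to 6.92. The second Jund probe set, which lies below background, measured 4.64 in Mll-AF9 HSC replicate 5 against 3.75 to 3.95, and 3.43 in wild-type HSC replicate 4 against 3.99 to 4.08.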

How the results depend on the processing

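The number of genes called between genotypes was 0 under every alternative run, the replicate block included. Leaving out 1 replicate at a time gave 8 to 9 called for wild-type GMP against HSC, 9 to 9 for Mll-AF9 GMP against HSC, 6 to 7 for wild-type GMP against CMP, 4 to 5 for wild-type CLP against CMP, 9 to 9 for wild-type CLP against GMP, 3 to 4 for Mll-AF9 CMP against HSC, 0 to 1 for Mll-AF9 CLP against HSC and 1 to 6 for wild-type CMP against HSC. Wild-type CMP against HSC, with 2 called, gave 1 with median centring, without the intensity trend, with the 3′ minus 5′ covariate and with the second CMP run alone, and 6 without the 3 low replicates, a choice made after seeing the data. Mll-AF9 CLP against HSC, with 1 called, gave 0 with median centring, without the trend, with robust eBayes, with the 3′ minus 5′ covariate, with only the 2 groups in the fit and without the 3 low replicates. The cause was not tested. Of 9 correlations with Fos, 1 was called within GMP and 1 within CMP. They changed sign for Jund at -0.0821 within GMP and -0.48 within CMP, and for Ier2 at -0.0245 within GMP. The other Jund probe set, not read because it lies below background, gave -0.37.

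Same-numbered replicates of the genotypes correlated at -0.41 to 0.20, and those of different populations of 1 genotype at -0.46 to 0.33. None of these comparisons had every pair over 0.1, the nearest being wild-type GMP and CMP with 4 of 5, so the numbers were not taken as pairs. In both of these groups the Y-linked level was above background in replicates 1 to 3 and below it in 4 and 5, and whether same-numbered replicates share a source was not tested. With the replicate block, wild-type CLP against CMP gave 4 genes instead of 5, Jun being lost (adjusted p = 0.11), and the counts of the other comparisons were as in the fits without it. Of 118 differences with an unadjusted p of 0.05 or more, 70 changed sign under at least 1 alternative, in 213 of 2887 values. These 118 were set apart after their sign changes had been counted. The number of all probe sets called moved more than that of the genes described, over the alternatives that keep every replicate or leave out the 3 low ones: between genotypes 75 in GMP gave 22 to 122, 83 in CMP gave 9 to 215, 97 in CLP gave 0 to 402 and 3 in HSC gave 2 to 121, and 108 for wild-type CLP against HSC gave 5 to 520. For the interactions, 57 in CLP gave 24 to 55, 5 in GMP gave 4 to 31 and 0 in CMP gave 0 to 7.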
